A study of Sus scrofa with 6 samples.

Results

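Apolipoproteins and the proteins that carry lipids beside them were described here as a set of 10 genes of the pig: APOE, APOA1, APOA2, APOB, APOD, CLU, ABCA1, LRP2, FABP3 and FABP5. The genes were chosen by name as a family, with the TPM values of both cell types already known. The values that chose them, pgEpiSC against pEF, are therefore given below as a description and carry no test. Each of the 10 names matched 1 row of the deposited table of 20131 genes. Of these, 6 reached 1 TPM (a transcript level normalised for length) in at least 2 libraries. The other 4, APOA2, APOB, APOD and LRP2, did not exceed 0.475 TPM in any library.

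The study compared pgEpiSC, cultured pre-gastrulation stem cells whose source was the epiblast of pig embryos at embryonic day 10, with pEF, fibroblasts taken from pig fetuses at embryonic day 30. RNA-seq of rRNA-depleted total RNA gave 4 pgEpiSC libraries and 2 pEF libraries, called biological replicates by the submitters. No label says whether they came from separate lines, litters or cultures, so the spread between libraries may be partly technical. No genetic change or treatment is named for either group. The age of the donors differs together with the cell type, so stage and cell type cannot be told apart.

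Apolipoproteins are the protein coat of lipoprotein particles. They keep cholesterol and triglyceride soluble outside the cell, and some are ligands that bring the particle to a receptor. ABCA1 moves cholesterol and phospholipid from the plasma membrane onto lipid-poor APOA1 and APOE, and lipoprotein receptors, LRP2 among them, take particles up. Fatty acid binding proteins do the matching work inside the cell. In mammalian embryos the visceral endoderm around the epiblast, and later the liver, are known for strong apolipoprotein expression.

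Summed over all listed genes, pgEpiSC had 157288 to 320206 TPM and pEF had 93556 and 145611 TPM. TPM adds up to 1000000 over all transcripts of a library, so most of it lay outside the listed genes. What made up the unlisted part is not stated. Its size differed between libraries, and values as deposited depend on it. Read depth cannot be derived from TPM. Library factors from median-ratio scaling, which divides each library by its median ratio to the geometric mean over genes above 0 everywhere, were 0.697, 2.15, 1.61 and 0.722 in pgEpiSC 1 to 4 and 0.569 and 0.944 in pEF 1 and 2. Replicates 2 and 3 of pgEpiSC thus stood higher across most genes than replicates 1 and 4, and values are given both as deposited and scaled where this matters. Replicates 1 and 4 were the most alike pair (Pearson r of log2(TPM + 1) across 10424 genes 0.9900, against 0.9346 to 0.9633 for the other pgEpiSC pairs), with 0 genes at equal values above 0. The marker lists separated the groups: 8 epiblast markers summed to 519, 2044, 1117 and 575 TPM in pgEpiSC and to 0.133 and 0.685 TPM in pEF, and 12 fibroblast markers to between 36.6 and 75.9 TPM in pgEpiSC and to 1419 and 2373 TPM in pEF. The median difference of all 10424 genes tested was 0.48 log2 units higher in pgEpiSC as deposited and 0.02 after scaling.

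The set divided in a simple way. In pgEpiSC nearly all of its summed TPM belonged to APOE and the fatty acid binding proteins FABP3 and FABP5, and in pEF nearly all of it belonged to CLU. APOE alone held 64.4, 79.7, 79.6 and 75.0% of the summed TPM of the 10 genes in pgEpiSC 1 to 4, against 0.338 and 0.311% in pEF 1 and 2. CLU held 1.63, 2.23, 3.25 and 1.70% in pgEpiSC and 96.9 and 91.2% in pEF. As deposited, the sum itself was of like size in both, at 145, 316, 266 and 132 TPM in pgEpiSC and 192 and 290.4 TPM in pEF. As a share of all listed TPM it was lower in every pgEpiSC library. That share was 0.0922, 0.0987, 0.127 and 0.0792% in pgEpiSC 1 to 4, against 0.205 and 0.199% in pEF 1 and 2.

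**Figure D1:**
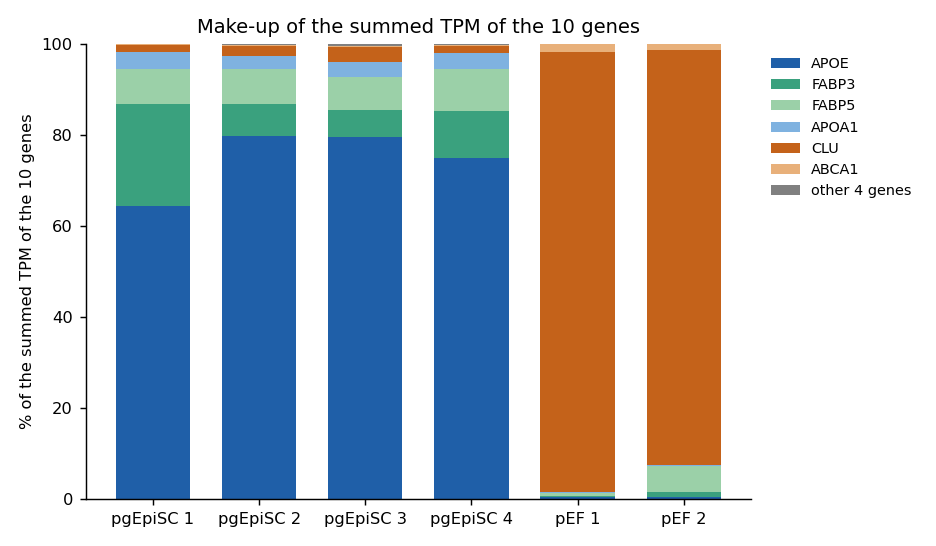
Share of the summed TPM of the 10 genes (y axis, %) in each library (x axis), stacked by gene. APOE fills 64.4 to 79.7% of the 4 pgEpiSC bars, and CLU fills 96.9 and 91.2% of the 2 pEF bars.

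APOE (ENSSSCG00000003088) encodes a ligand of lipoprotein receptors that is secreted by many cells outside the liver. It stood at 93.4, 252, 212 and 98.7 TPM in pgEpiSC 1 to 4, against 0.649 and 0.904 TPM in pEF 1 and 2. Every pgEpiSC library was far above both pEF libraries. The means were 164 ± 80.1 TPM in pgEpiSC (SD, n = 4) and 0.776 ± 0.18 TPM in pEF (SD, n = 2), a ratio of 211. On the log2(TPM + 1) scale, which understates folds of low values, the difference was 6.40 ± 0.50 (SE from limma). In bulk RNA, a smaller number of expressing cells and less RNA in each cell cannot be told apart, for this gene and for those that follow.

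The spread of APOE between pgEpiSC libraries followed the library factors. After scaling, the 4 libraries stood at 134, 117, 131 and 137, against 1.14 and 0.957 in pEF. The coefficient of variation over pgEpiSC libraries was 48.8% as deposited and 6.79% after scaling, the lowest scaled value among the 6 genes above the expression limit. Among 20131 genes APOE ranked 202, 160, 139 and 206 by level in pgEpiSC 1 to 4, against 8350 and 8920 in pEF 1 and 2; a rank within a library does not depend on its scale.

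APOA1 (ENSSSCG00000030921) encodes the main protein of high-density lipoprotein and the acceptor of lipid from ABCA1. Its level was 5.36, 9.03, 8.88 and 4.59 TPM in pgEpiSC, against 0.453 and 0.874 TPM in pEF. The groups did not overlap, but the level was much lower than that of APOE. The means were 6.97 ± 2.32 TPM in pgEpiSC (SD, n = 4) and 0.664 ± 0.298 TPM in pEF (SD, n = 2), with a log2 difference of 2.22 ± 0.56 (SE). Scaled values were 7.69, 4.2, 5.51 and 6.36 in pgEpiSC and 0.796 and 0.926 in pEF. Within each library APOE exceeded APOA1 by a factor of 17.4, 27.9, 23.9 and 21.5 in pgEpiSC, against 1.43 and 1.03 in pEF.

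The other 2 apolipoproteins were close to 0 in every library. APOB (ENSSSCG00000008595), the non-exchangeable protein of very low- and low-density lipoproteins, stood at 0.031, 0.0823, 0.187 and 0.0356 TPM in pgEpiSC, against 0.00447 and 0.021 TPM in pEF. APOA2 (ENSSSCG00000006355), the second major protein of high-density lipoprotein, was at 0.126 TPM in pgEpiSC 3 and listed at 0 in the other 3 pgEpiSC libraries and in both pEF libraries. APOB in pgEpiSC was thus above pEF in every library, at levels under 0.2 TPM. MTTP, which loads lipid onto APOB, did not reach 1 TPM in any library.

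APOD (ENSSSCG00000011831) belongs to the lipocalins, small carriers of hydrophobic molecules, and is not related in sequence to the other apolipoproteins. It was at 0.034, 0.131, 0.253 and 0.0232 TPM in pgEpiSC, against 0.0236 and 0.0249 TPM in pEF. The groups overlapped, since pgEpiSC 4 lay below both pEF libraries.

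CLU (ENSSSCG00000009668) encodes clusterin, also known as apolipoprotein J, a secreted chaperone that binds lipids and misfolded proteins. It stood at 2.36, 7.04, 8.65 and 2.23 TPM in pgEpiSC, against 186 and 265 TPM in pEF. Both pEF libraries were far above every pgEpiSC library. The means were 5.07 ± 3.27 TPM in pgEpiSC (SD, n = 4) and 226 ± 55.8 TPM in pEF (SD, n = 2). The log2 difference was -5.37 ± 0.53 (SE) as deposited and -6.01 ± 0.26 after scaling, and the pEF mean was 44.5 times that of pgEpiSC. CLU ranked 4642, 4733, 3038 and 4881 among all genes in pgEpiSC 1 to 4, against 83 and 77 in pEF 1 and 2.

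APOE and CLU were therefore exchanged as the leading gene of the set. The ratio of APOE to CLU within a library, which is free of the library's scale, was 39.5, 35.7, 24.5 and 44.2 in pgEpiSC, against 0.00349 and 0.00341 in pEF. The ratio varied little between the libraries of a group, compared with the gap between the groups. It shows that APOE and CLU did not differ by the same factor between the cell types, and it says nothing of either alone.

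**Figure D2:**
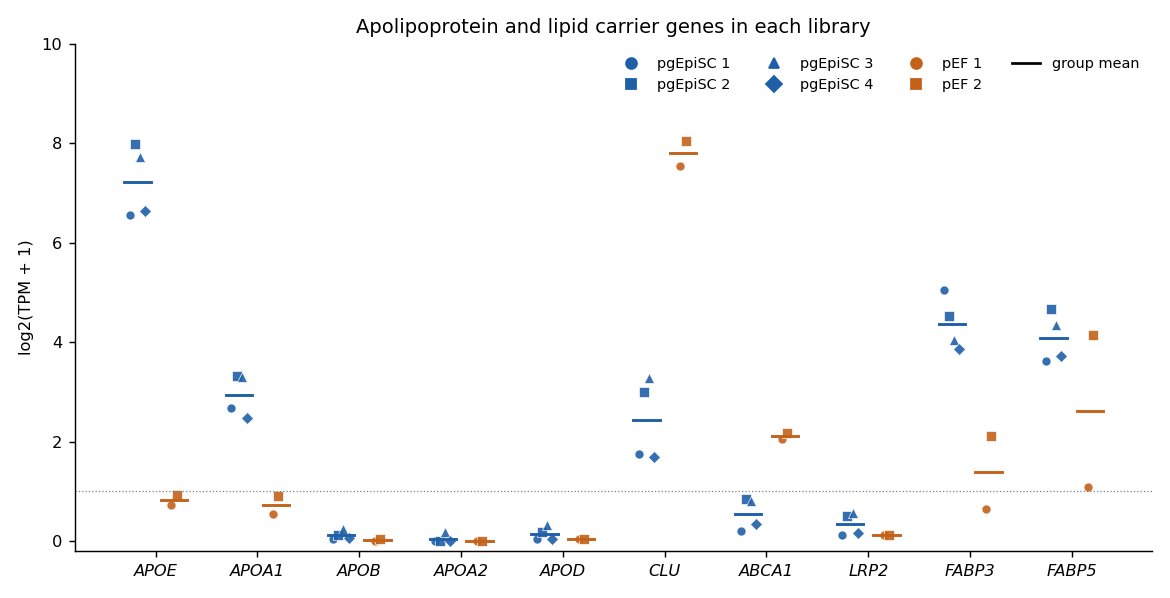
Level of each gene as log2(TPM + 1) (y axis) in the 4 pgEpiSC libraries (blue, left of each pair) and the 2 pEF libraries (orange, right). Each point is 1 library, short bars are group means on this scale, and the dotted line marks 1 TPM. APOE, APOA1 and FABP3 lie above pEF in every pgEpiSC library, CLU and ABCA1 lie below, and FABP5 overlaps.

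ABCA1 (ENSSSCG00000005423), the exporter, was low in pgEpiSC. Its level was 0.152, 0.789, 0.749 and 0.275 TPM in pgEpiSC, against 3.16 and 3.49 TPM in pEF. All 4 pgEpiSC libraries were below both pEF libraries. The means were 0.491 ± 0.325 TPM in pgEpiSC (SD, n = 4) and 3.33 ± 0.228 TPM in pEF (SD, n = 2), with a log2 difference of -1.56 ± 0.43 (SE) as deposited and -2.03 ± 0.17 after scaling. APOE, to which this exporter passes lipid, was thus high where the exporter was low: the ratio of APOE to ABCA1 within a library was 616, 319, 283 and 358 in pgEpiSC, against 0.205 and 0.259 in pEF.

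LRP2 (ENSSSCG00000040746) encodes megalin, a large endocytic receptor for apolipoproteins and vitamin carriers that marks visceral endoderm, kidney and neural epithelia. It stood at 0.0907, 0.411, 0.475 and 0.117 TPM in pgEpiSC, against 0.0834 and 0.0819 TPM in pEF. As deposited the groups did not overlap, with pgEpiSC 1 only just above pEF 1. After scaling they overlapped, at 0.13, 0.191, 0.295 and 0.162 in pgEpiSC and 0.147 and 0.0867 in pEF. Its partner receptor CUBN did not exceed 0.0172 TPM in any pgEpiSC library or 0.0149 TPM in either pEF library.

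The 2 fatty acid binding proteins differed from each other. FABP3 (ENSSSCG00000036883), the heart-type protein, stood at 32.3, 22.2, 15.4 and 13.5 TPM in pgEpiSC, against 0.56 and 3.35 TPM in pEF. All pgEpiSC libraries were above pEF, and the means were 20.9 ± 8.51 TPM in pgEpiSC (SD, n = 4) and 1.96 ± 1.97 TPM in pEF (SD, n = 2), with a log2 difference of 2.99 ± 0.55 (SE). FABP3 did not follow the library factors as APOE did. Scaled values were 46.4, 10.3, 9.58 and 18.7 in pgEpiSC and 0.984 and 3.55 in pEF, and the coefficient of variation over pgEpiSC libraries was 40.8% as deposited and 81.3% after scaling. Replicate 1 was the highest pgEpiSC library on both scales. Without pEF replicate 1 the log2 difference was 2.25, and without pEF replicate 2 it was 3.73.

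FABP5 (ENSSSCG00000006153), the epidermal-type protein, was at 11.3, 24.5, 19.4 and 12.2 TPM in pgEpiSC, against 1.11 and 16.7 TPM in pEF. The groups overlapped, because pEF 2 lay within the range of pgEpiSC. The means were 16.9 ± 6.27 TPM in pgEpiSC (SD, n = 4) and 8.92 ± 11.1 TPM in pEF (SD, n = 2), and the log2 difference was 1.48 ± 0.60 (SE). Its direction rested on 1 library, as the difference was -0.06 without pEF replicate 1 and 3.02 without pEF replicate 2. After scaling pEF 1 and 2 still differed by a factor of 9.12, while the highest and lowest pgEpiSC libraries differed by 1.48. The ratio of FABP3 to FABP5 was 2.85, 0.905, 0.794 and 1.11 in pgEpiSC, against 0.506 and 0.2 in pEF.

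The 2 pEF libraries also differed in muscle genes. The 9 markers of skeletal and heart muscle, all found by name, summed to 3.35, 4.36, 3.38 and 2.07 TPM in pgEpiSC, against 25.3 and 226 TPM in pEF 1 and 2. DES (desmin) led the list at 24.5 and 204 TPM in pEF, and the cardiac actin gene ACTC1 was at 0.491 and 17.1 TPM. The adipocyte list summed to between 1.81 and 2.96 TPM in pgEpiSC and to 1.10 and 8.60 TPM in pEF. In pEF 1 and 2 the adipocyte fatty acid binding protein FABP4 was at 0.504 and 5.63 TPM and LPL at 0.371 and 2.28 TPM. PPARG was at 0.141 and 0.595 TPM. ADIPOQ, PLIN1, PLIN4, CIDEC and LEP did not exceed 0.0702 TPM in either pEF library, and PLIN1 and PLIN4 were lower in pEF 2. The sums of the muscle and adipocyte lists, with DES, ACTC1, FABP4, LPL and PPARG, were higher in the same pEF library as FABP3 and FABP5. Their part in the levels of FABP3 and FABP5 was not tested.

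**Figure D3:**
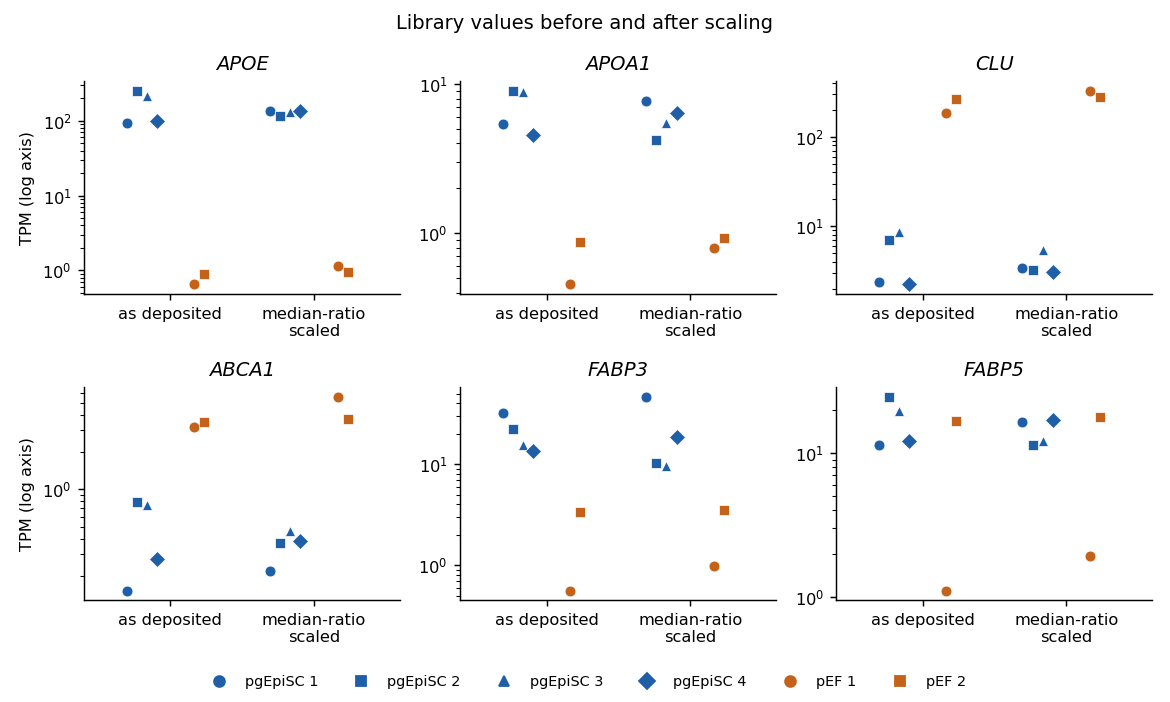
TPM on a log axis (y) of 6 genes in each library, as deposited and after median-ratio scaling (x), with pgEpiSC in blue on the left and pEF in orange on the right of each pair. The pgEpiSC libraries of APOE draw together after scaling (117 to 137), those of FABP3 do not (9.58 to 46.4), and the pEF libraries of FABP5 stay apart (1.94 and 17.7).

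Within pgEpiSC the order of mean level was APOE, FABP3, FABP5, APOA1, CLU, ABCA1, LRP2, APOD, APOB and APOA2. The library ranges of neighbours did not overlap between APOE and FABP3, FABP5 and APOA1, or CLU and ABCA1. All other neighbours overlapped in range, although APOA1 was above CLU in each of the 4 libraries. In pEF the order was CLU, FABP5, ABCA1, FABP3, APOE, APOA1, LRP2, APOD, APOB and APOA2, and neighbours from FABP5 to APOA1 overlapped in range.

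In the limma fit over all 10424 genes tested, 3 of the 6 members above the expression limit were past the threshold and higher (APOE, APOA1 and FABP3) and 2 were past it and lower (CLU and ABCA1). Of all genes tested, 18.0% were called higher and 9.43% lower. The same 5 were past the threshold after scaling, where 27.0% of all genes were called higher and 30.9% lower. As deposited, libraries of both cell types were apart, without overlap, for 3 of these 6 members upward and 2 downward, against 36.6% and 12.9% of all genes tested. The members were picked with this contrast known and the 6 had to be above 1 TPM in some libraries, so nothing is read from these counts. The calls place the members among all genes and are not a test of them. APOA1, FABP3 and FABP5 changed side of the threshold when a pEF library was left out, which leaves 1 library in that group. After scaling FABP3 and FABP5 did so. FABP5 also changed side as deposited without pgEpiSC replicate 1, 2 or 4.

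By level across the 6 libraries, the named genes closest to APOE were DNMT3B, LEFTY2 and NASP, with mean absolute differences of 0.456, 0.6 and 0.669 on the log2(TPM + 1) scale. DNMT3B is a DNA methyltransferase, LEFTY2 a secreted Nodal antagonist and NASP a histone chaperone. Closest to CLU were FN1, the fibronectin gene (0.34), the gap junction gene GJA1 (0.533) and PRXL2A (0.539). Closest to FABP3 were VRK1, DLGAP5 and HMMR (0.331, 0.409 and 0.411), and closest to FABP5 were TRAM1, KIF11 and STXBP3 (0.406, 0.419 and 0.421). Nearness of level over 2 cell types and 6 libraries is a description of level alone.

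Cell types known for apolipoproteins were looked for by their markers. Of 16 hypoblast and endoderm markers 14 were found by name. SOX17 and AMN were not found, so their levels are unknown here. Of the 14, 2 reached 1 TPM in any pgEpiSC library. These were FOXA2, an endoderm and node transcription factor, at 2.37, 3.30, 3.73 and 1.47 TPM in pgEpiSC, against 0.00687 and 0.00357 TPM in pEF, and FN1. The list summed to 6.13, 16.7, 13.4 and 4.29 TPM in pgEpiSC and to 223 and 546 TPM in pEF, where FN1, which fibroblasts express, made up 202 and 520.3 TPM. GATA4, GATA6 and HNF4A did not exceed 0.176 TPM in any pgEpiSC library. The 8 hepatocyte markers found by name summed to between 0.645 and 1.28 TPM in pgEpiSC and to 0.375 and 0.48 TPM in pEF. The 11 macrophage and blood markers summed to between 0.923 and 3.58 TPM in pgEpiSC and to 0.323 and 0.471 TPM in pEF. PTPRC was at no more than 0.0521 TPM in pgEpiSC. ITGAM, SPI1 and CD68 had the highest means there, at 0.721, 0.5 and 0.382 TPM, against 0.0992, 0.138 and 0.0324 TPM in pEF. CD14 alone averaged lower in pgEpiSC than in pEF (0.0392 and 0.0428 TPM). The part of these markers in the levels of the 10 genes was not tested. The 10 trophectoderm markers summed to between 3.36 and 21.8 TPM in pgEpiSC and to 4.86 and 12.8 TPM in pEF, and CDX2 did not exceed 0.0331 TPM in pgEpiSC. In that list KRT7, TEAD4 and TFAP2C averaged 4.56, 3.56 and 1.28 TPM in pgEpiSC, against 0.54, 0.848 and 0.0417 TPM in pEF, and their part in the levels of the 10 genes was not tested. The 6 neural and glial markers summed to between 1.12 and 8.37 TPM in pgEpiSC and to 0.324 and 0.594 TPM in pEF, led by FOXD3, which epiblast cells also express, and the 4 endothelial markers summed to no more than 0.513 TPM in pgEpiSC and 0.232 TPM in pEF.

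The wider pathway was read from 7 lists of 136 related genes, of which 108 were found by name and 58 reached the expression limit. The other 50 did not exceed 2.44 TPM in any library. Of the 58, 8 rose and 12 fell in pgEpiSC (limma, adjusted p below 0.05 over all genes), and 38 did not pass. That is 13.8% higher and 20.7% lower, against 18.0% and 9.43% of all genes tested, and the median log2 difference was -0.21 against 0.48 over all genes tested. After scaling, 11 rose and 32 fell (19.0% and 55.2%, against 27.0% and 30.9%), with a median of -0.64 against 0.02. As deposited the counts were 1 higher without pEF replicate 1, 2 higher and 5 lower without pEF replicate 2, and 4 higher without pgEpiSC replicate 3.

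**Figure D4:**
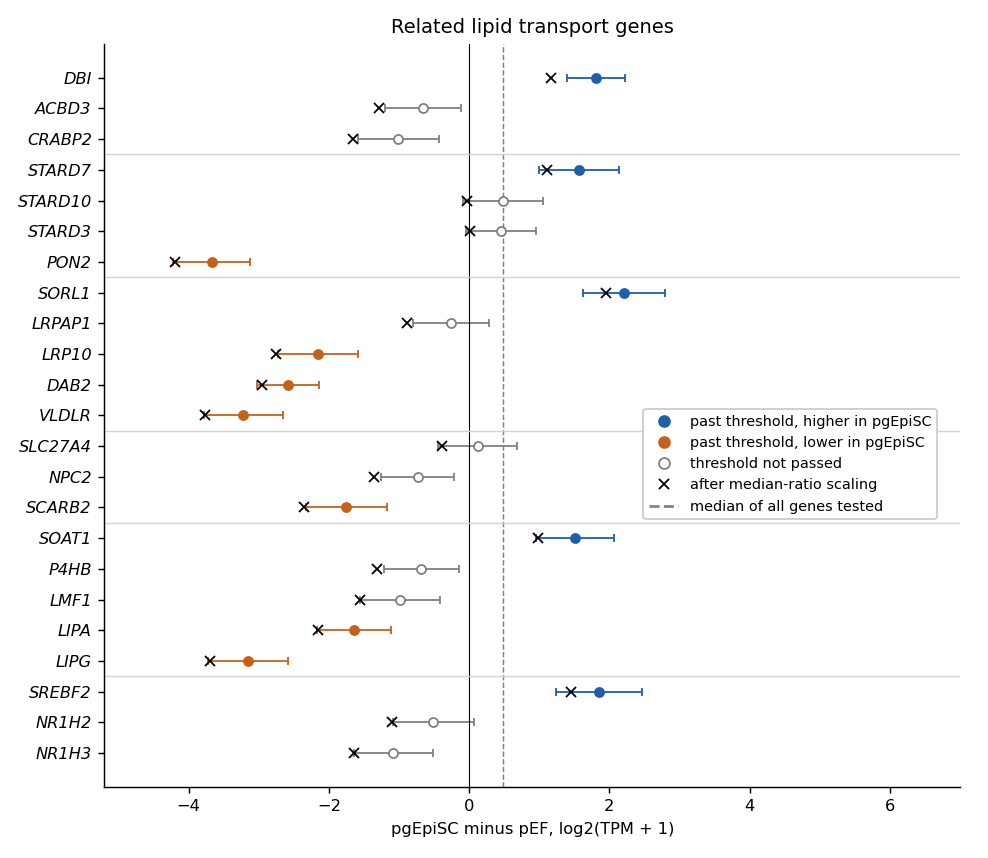
Difference between pgEpiSC and pEF in log2(TPM + 1) (x axis) for related genes taken by the naming rule (y axis), with standard errors from limma (bars), grouped by list. Filled points passed the adjusted threshold (blue higher, orange lower), open points did not, crosses give the difference after scaling, and the dashed line is the median of all genes tested (0.48). Of the genes drawn, SORL1 lies farthest right at 2.21 and PON2 farthest left at -3.67.

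Of 17 other apolipoproteins on the list 5 were found by name, and 1 was tested. This was APOF, a plasma apolipoprotein, which rose with 0.768, 2.66, 2.55 and 0.994 TPM in pgEpiSC, against 0.114 and 0.231 TPM in pEF (log2 difference 1.15 ± 0.43, adjusted p = 0.0402). APOA4, APOC3, APOH and APOM did not exceed 0.332 TPM in any library. The call of APOF was lost without pgEpiSC replicate 3 or either pEF library (highest adjusted p = 0.308). APOF, like PON1, MYLIP, SLC27A3, RARA and RARB below, fell outside the rule for named genes. Each was added after its values were seen, as a called gene that the rule left out.

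Among other small intracellular carriers 10 were tested, 2 rose (20%, against 18.0% of all genes tested) and 8 did not pass. None fell, against 9.43% of all genes tested. After scaling 3 rose and 3 fell (30% and 30%, against 27.0% and 30.9%). DBI, the acyl-CoA binding protein, was at 235, 297, 215 and 224 TPM in pgEpiSC, against 53.9 and 85.2 TPM in pEF (1.81 ± 0.42, adjusted p = 0.00115), and had the highest mean of the 108 related genes in pgEpiSC. DBI did not pass after scaling (1.17, adjusted p = 0.0632) or with pEF replicate 1 left out (adjusted p = 0.0675). CRABP2, a retinoic acid carrier, was at 40.5 ± 41.8 TPM in pgEpiSC (SD, n = 4) and 63.4 ± 40.7 TPM in pEF (SD, n = 2), and its groups overlapped; it did not pass as deposited and was lower after scaling (-1.65, adjusted p = 0.0124).

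Of 7 tested paraoxonases and lipid transfer proteins 1 rose, 2 fell and 4 did not pass. The shares were 14.3% higher and 28.6% lower, against 18.0% and 9.43% of all genes tested. After scaling 2 rose and 2 fell (28.6% and 28.6%, against 27.0% and 30.9%). The lipocalin LCN2, on the same list, did not reach the expression limit. STARD7, which moves phosphatidylcholine to mitochondria, rose at 7.07 ± 4.08 TPM in pgEpiSC (SD, n = 4) against 1.51 ± 0.415 TPM in pEF (SD, n = 2), with adjusted p = 0.0351 from limma. PON2, an intracellular lactonase, fell to 0.394, 1.23, 0.704 and 0.528 TPM in pgEpiSC, against 18.2 and 23.1 TPM in pEF (-3.67 ± 0.55, adjusted p = 1.87e-06). PON1, the form bound to high-density lipoprotein, fell as well but was at most 1.81 TPM (-0.97 ± 0.35, adjusted p = 0.0344). The call of STARD7 was lost without pgEpiSC replicate 3 or either pEF library, and that of PON1 without pgEpiSC replicate 1, 3 or 4 or pEF replicate 2; PON2 kept its call with each library left out.

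Of 14 tested receptors of lipoproteins and their adaptors 1 rose (7.14%), 5 fell (35.7%) and 8 did not pass. Among all genes tested 18.0% were higher and 9.43% lower. After scaling 2 rose and 10 fell (14.3% and 71.4%, against 27.0% and 30.9%). VLDLR, a receptor for particles that carry APOE, fell to 0.737, 1.43, 1.47 and 0.634 TPM in pgEpiSC, against 12.6 and 25.3 TPM in pEF (-3.22 ± 0.56, adjusted p = 2.4e-05). DAB2, the endocytic adaptor of LRP2 and its relatives, was at 0.124 ± 0.0152 TPM in pgEpiSC (SD, n = 4) and 6.45 ± 4.51 TPM in pEF (SD, n = 2), with adjusted p = 1.41e-05 from limma. LRP10 fell by 2.16 log2 units, and MYLIP, a ubiquitin ligase that removes lipoprotein receptors, by 1.35 (adjusted p = 0.00364 and 0.0126).

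SORL1, a sorting receptor that binds APOE, moved the other way. It rose to 2.17, 8.86, 8.62 and 1.52 TPM in pgEpiSC, against 0.0569 and 0.22 TPM in pEF (2.21 ± 0.58, adjusted p = 0.00358). LRPAP1, a chaperone of these receptors, was at 18.1 ± 12.4 TPM in pgEpiSC (SD, n = 4) and 18.7 ± 0.809 TPM in pEF (SD, n = 2). It did not pass as deposited and was lower after scaling (-0.89, adjusted p = 0.018). VLDLR, DAB2 and MYLIP kept their calls with each library left out. The calls of SORL1 and LRP10 were lost without either pEF library. After scaling these 5 were called in the same direction with each library left out.

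Of 8 tested exporters, scavenger receptors and uptake proteins 1 rose, 1 fell and 6 did not pass. Each call is 12.5%, against 18.0% higher and 9.43% lower of all genes tested. After scaling 1 rose and 3 fell (12.5% and 37.5%, against 27.0% and 30.9%). SLC27A3, of the fatty acid transport protein family, rose to 1.29, 5.70, 2.52 and 1.26 TPM in pgEpiSC, against 0.0503 and 0.055 TPM in pEF (1.66 ± 0.48, adjusted p = 0.00817). SCARB2, a lysosomal membrane protein, fell to 2.27 ± 2.02 TPM in pgEpiSC (SD, n = 4) against 8.80 ± 2.4 TPM in pEF (SD, n = 2), with adjusted p = 0.0219 from limma. NPC2, the lysosomal carrier of cholesterol, was at 17.5 ± 9.4 TPM in pgEpiSC and 28.3 ± 11.9 TPM in pEF and passed after scaling alone (-1.35, adjusted p = 0.0058). ABCG1, the other main exporter of cellular cholesterol, did not exceed 0.31 TPM in any library. Both calls were lost without either pEF library, and that of SCARB2 also without pgEpiSC replicate 4.

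Among 9 tested genes of lipoprotein assembly, lipolysis and cholesterol ester formation 1 rose (11.1%), 2 fell (22.2%) and 6 did not pass. For all genes tested the shares were 18.0% and 9.43%. After scaling 1 rose and 8 fell (11.1% and 88.9%, against 27.0% and 30.9%). LIPG, the endothelial lipase, fell to 0.633, 1.63, 1.35 and 0.462 TPM in pgEpiSC, against 9.07 and 29.2 TPM in pEF (-3.15 ± 0.57, adjusted p = 4.95e-05). LIPA, the lysosomal acid lipase, fell to 1.15 ± 0.588 TPM in pgEpiSC (SD, n = 4) against 5.52 ± 0.0825 TPM in pEF (SD, n = 2), with adjusted p = 0.0177 from limma. SOAT1, which esterifies cholesterol for storage, rose to 4.73, 15.4, 14.4 and 6.78 TPM in pgEpiSC, against 2.26 and 3.03 TPM in pEF (1.51 ± 0.56, adjusted p = 0.0399). LIPG kept its call with each library left out, LIPA lost it without either pEF library, and SOAT1 also without pgEpiSC replicate 3.

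Of 9 tested regulators 1 rose (11.1%, against 18.0% of all genes tested), 2 fell (22.2%, against 9.43%) and 6 did not pass. After scaling 1 rose and 6 fell (11.1% and 66.7%, against 27.0% and 30.9%). SREBF2, the transcription factor that drives cholesterol synthesis genes, rose to 3.10, 15.9, 10.2 and 2.69 TPM in pgEpiSC, against 0.426 and 1.89 TPM in pEF (1.85 ± 0.61, adjusted p = 0.0204). The retinoic acid receptor genes RARA and RARB fell by 1.04 and 1.31 log2 units (adjusted p = 0.0456 and 0.0217). NR1H3 and NR1H2 encode the LXR receptors, which sense oxysterols and are known to induce ABCA1, MYLIP and, in macrophages and adipocytes, APOE. NR1H3 was at 1.96, 5.17, 2.78 and 1.71 TPM in pgEpiSC, against 6.04 and 7.64 TPM in pEF, without overlap; it did not pass as deposited (-1.08 ± 0.56, adjusted p = 0.152) and was lower after scaling (-1.64, adjusted p = 0.000202). NR1H2 was at 4.95 ± 4.07 TPM in pgEpiSC (SD, n = 4) and 6.29 ± 1.16 TPM in pEF (SD, n = 2), also lower after scaling alone (-1.10, adjusted p = 0.00358). The call of SREBF2 was lost without pgEpiSC replicate 3 or either pEF library, that of RARA without pgEpiSC replicate 1, 3 or 4 or pEF replicate 2, and that of RARB without pgEpiSC replicate 3 or pEF replicate 2.

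Over the 20 related genes called as deposited, 6 kept the call with each library left out, among them PON2, VLDLR, DAB2, MYLIP and LIPG. After scaling 19 of the 20 were called in the same direction, and those 19 kept the call with each library left out. DBI was the exception.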

How the data were processed

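Total RNA freed of rRNA was sequenced with strand-specific libraries, per the labels' protocols, in 4 pgEpiSC and 2 pEF libraries. The authors deposited TPM values, 1 column per library. Tools listed, per the submitters' processing notes, are STAR 2.6.0c and kallisto 0.44.0, without their roles. Which genome build served is not given in the sources used here, nor are the gene models. No coordinates or sequences are printed for this reason. How reads shared with near-identical gene copies were assigned is also not given, which bears on gene families such as FABP5.

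Gene IDs were paired with symbols by a gene name table (14062 of 20132 rows, 69.8%), and 2 rows sharing a symbol were summed. Genes at 1 TPM or more in at least 2 libraries (10424) were fitted with limma 3.58.1 (R 4.3.3) on log2(TPM + 1) with group as the factor, an empirical Bayes variance with trend, and Benjamini-Hochberg adjustment over all of them at 0.05. The fit was tested on simulated data. Every adjusted p in the text is from limma. Tables and figures used Python 3.11.15, pandas 2.3.3, numpy 2.4.6 and matplotlib 3.10.9.

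The members and gene lists were chosen with earlier results of these data known. Named related genes are, per list, up to 4 called genes whose higher group averaged 5 TPM or more, by size of difference, and up to 2 others by mean TPM. A few related genes that enter the counts are not reported here by name. Genes near in level were sought for members with a mean of at least 10 TPM in either group, 3 for each. TPM keeps no counts, so read depth is unknown and no counting intervals are given. The alternatives were other pseudocounts (0.1 and 5), no filter or a mean of at least 5 TPM, median-ratio scaling, rescaling to 1000000, quantile normalization, a variance without trend or robust, a replicate block, and each library left out, with and without scaling.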

Additional observations from a re-analysis of the deposited data

Results flagged for a closer look

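APOA2 in pgEpiSC replicate 3 was at 0.126 TPM, while the other 3 pgEpiSC libraries were listed at 0, so its gap to the nearest library was the whole range of the group. STARD10, a lipid transfer protein, was at 8.31 TPM in pgEpiSC replicate 2, against 2.13, 3.07 and 2.02 TPM in replicates 1, 3 and 4, a gap of 0.834 of the range, just past Dixon's critical value for 4 samples. Replicate 2 also had the highest library factor. These were 2 of 42 genes examined in this way, on values as deposited and without the library factors. Chance flags about 1 in 20 where values are normally distributed. For APOA2, with 3 libraries at 0, any value above 0 in replicate 3 would have been flagged.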

How the results depend on the processing

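Genes called higher numbered 1874 as deposited, 967 with a pseudocount of 5, 787 with no filter, 1185 at a mean of at least 5 TPM (fewer genes tested), 2812 after median-ratio scaling and 3374 after quantile normalization. Genes called lower numbered 983, against 368 at a mean of at least 5 TPM, 3222 after median-ratio scaling, 2924 after rescaling and 2779 after quantile normalization. With each library left out, higher calls ranged from 252 (without pEF replicate 1) to 2270 as deposited and from 1791 to 2896 after scaling, and lower calls from 555 (without pEF replicate 2) to 1367 and from 2664 to 3327 (scaled 2952, 3015 and 3018 without pgEpiSC replicates 1, 3 and 4 and 2685 without pEF replicate 1); higher calls were 590 without pEF replicate 2 and 1057 without pgEpiSC replicate 3. Related genes called higher numbered 8, with 2 at a pseudocount of 5, 3 with no filter and 5 at a mean of at least 5 TPM, and between 1 and 11 as deposited and 8 and 13 after scaling with a library left out. Related genes called lower numbered 12, with 7 with no filter, 3 at a mean of at least 5 TPM, 32 after median-ratio scaling, 28 after rescaling and 31 after quantile normalization, and between 5 and 18 as deposited and 26 and 33 after scaling with a library left out (27 without pEF replicate 2). Except where fewer genes were tested, the cause was not tested.

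Among the members, log2 differences with pseudocounts of 0.1 and 5 were 7.43 and 4.74 for APOE, 3.20 and 1.06 for APOA1, -2.73 and -0.60 for ABCA1 and 3.71 and 1.87 for FABP3, and -4.55 for CLU with 5, a change that the pseudocount makes by construction. ABCA1 was at -2.03 after median-ratio scaling, -3.29 after rescaling and -1.91 after quantile normalization, and CLU at -6.45 after rescaling. With each library left out the ranges were 6.15 to 6.63 (scaled 5.93 to 6.06) for APOE, 2.04 to 2.41 (1.76 to 2.01) for APOA1, -5.65 to -5.12 (-6.16 to -5.90) for CLU, -1.66 to -1.45 (-2.28 to -1.79) for ABCA1, 2.25 to 3.73 (2.01 to 3.20) for FABP3 and -0.06 to 3.02 (-0.32 to 2.34) for FABP5. Scaled values inside these ranges were 1.82 for APOA1 without pEF replicate 1, -6.12 for CLU without pEF replicate 2, 2.15 for FABP3 without pgEpiSC replicate 1 and -1.98, -2.04, -2.07 and -2.04 for ABCA1 without pgEpiSC replicates 1 to 4. FABP5 changed sign without pEF replicate 1, as deposited (-0.06) and scaled (-0.32). SLC27A4 was at 0.12 and not called, but -0.56 and called after scaling without pgEpiSC replicate 2. APOE, APOA1, CLU, ABCA1 and FABP3 kept their direction under each alternative run that included them, but not always their side of the threshold. With no filter ABCA1 was not past it, and FABP5 was past it with a pseudocount of 0.1 and with robust variance.

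With the replicate number of the labels as a block, 2204 genes were called higher and 893 lower, and 8 and 9 related genes; the members' differences were 6.45, 2.27, -5.42, -1.59, 3.42 and 1.54 for APOE, APOA1, CLU, ABCA1, FABP3 and FABP5, and FABP5 was past the threshold there. Only numbers 1 and 2 occur in both groups, and no label pairs them. Deviations from the group means correlated at 0.10 and 0.17 for the same numbers. Without read counts, genes below 1 TPM could not be compared beyond their listed values.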
